A study of Mus musculus with 4 samples.

Results

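Of the 20410 Gata4 peaks listed for wild-type (WT) Flk1(+) mesoderm cells, 1400 lay within 1000 bp of the 5′ end of a gene and had no peak of Dnmt3a-/-Dnmt3b-/- (DKO) Flk1(+) cells within 500 bp of their position. These WT-only promoter peaks are described here, with 159 that held under 10 CpGs in the 501 bases around the position set against 1037 that held 20 or more. They were chosen by their presence in the WT list and absence from the DKO list, so presence, absence and height are given as descriptions and were not tested. In all, 5341 WT peaks were promoter peaks by this distance, and the other 3941 of these had a DKO peak within 500 bp and are called shared.

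Both lists came from Gata4 ChIP-seq of ES cell-derived mesoderm, a study of how DNA methylation bears on where Gata4 binds. The WT Flk1+ Dex+ and DKO Flk1+ Dex+ libraries came from mouse ES cell clones of the J1 line (129 background), named J1G4.2 and 16G4.3 in the labels (the paper's methods give a longer form of the first name), which were grown on OP9 stroma for 4.5 days, given 100 nM dexamethasone (Dex) for 3 hr and sorted by magnetic beads for Flk1, a receptor of early mesoderm and vessel precursors. These clones carried Gata4GR, a fusion of Gata4 with the hormone-binding part of the human glucocorticoid receptor that Dex brings into action, and its broadly active CAG promoter makes it whether or not a cell makes its own Gata4. The WT ES Dex- and DKO ES Dex- libraries came from undifferentiated cells without Dex and served as the background of their genotype. Their labels give no clone, and by the paper's account these ES cells expressed Gata4GR too. Each condition was 1 library, and each Flk1(+) library was 1 clone, so a difference between genotypes cannot be told apart from a difference between clones or libraries. The paper's methods give more mapped reads for the DKO than for the WT Flk1(+) library, and the lists hold no read counts. The antibodies recognise Gata4, and the lists carry no marker by which the sorted cell type could be checked.

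Gata4 is a zinc-finger factor of heart, gut and extraembryonic endoderm that binds WGATAA (W standing for A or T), a motif without a CpG. Dnmt3a and Dnmt3b place new methyl groups on CpGs during differentiation. In mammals most CpG-rich promoters, the CpG islands, stay free of methylation in WT cells, whereas CpG-poor promoters are often methylated where the gene is silent and many belong to genes of a single tissue.

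Peaks with few CpGs more often held the Gata4 motif at their centres than peaks with many, and the 101 bases around the position of 9 peaks are shown as examples of each kind, on the plus strand of mm9 with every WGATAA, in either orientation, in capitals. The first 6 are CpG-poor and comprise peaks near *Lmo2*, *Nr5a2* and *Krt8*, genes of lists named further on, and at *Inpp4a*, *Glt6d1* and *BC051142*, which were among the 6 tallest of their class.
Lmo2, chr2:103798021-103798121: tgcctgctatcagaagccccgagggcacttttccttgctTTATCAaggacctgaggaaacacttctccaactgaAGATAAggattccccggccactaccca
Nr5a2, chr1:138857129-138857229: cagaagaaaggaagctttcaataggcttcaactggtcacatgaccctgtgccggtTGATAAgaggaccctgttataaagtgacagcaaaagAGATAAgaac
Krt8, chr15:101834931-101835031: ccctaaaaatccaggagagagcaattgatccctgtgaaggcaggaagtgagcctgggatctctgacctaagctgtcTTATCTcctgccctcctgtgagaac
Inpp4a, chr1:37426466-37426566: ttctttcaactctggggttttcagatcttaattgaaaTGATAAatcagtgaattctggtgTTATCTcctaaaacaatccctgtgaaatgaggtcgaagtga
Glt6d1, chr2:25670321-25670421: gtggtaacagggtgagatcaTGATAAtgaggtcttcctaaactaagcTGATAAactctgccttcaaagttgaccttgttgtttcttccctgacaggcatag
BC051142, chr17:34535102-34535202: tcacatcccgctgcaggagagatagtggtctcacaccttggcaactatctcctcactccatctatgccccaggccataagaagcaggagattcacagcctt
The other 3 are CpG-rich and comprise the tallest peak of all, at *Man1b1*, and peaks at *Kdr*, which encodes Flk1, and at *T*, the mesoderm gene Brachyury.
Man1b1, chr2:25188135-25188235: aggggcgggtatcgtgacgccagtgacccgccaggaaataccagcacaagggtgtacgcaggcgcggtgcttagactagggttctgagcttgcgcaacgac
Kdr, chr5:76374625-76374725: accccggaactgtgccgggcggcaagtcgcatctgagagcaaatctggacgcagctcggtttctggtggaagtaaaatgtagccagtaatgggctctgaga
T, chr17:8626942-8627042: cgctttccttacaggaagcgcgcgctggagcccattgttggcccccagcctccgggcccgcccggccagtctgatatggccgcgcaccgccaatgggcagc
The *Lmo2*, *Nr5a2*, *Inpp4a* and *Glt6d1* sequences each held 2 matches and the *Krt8* sequence 1 match, whereas the *BC051142* sequence, of the tallest CpG-poor peak, and the 3 CpG-rich sequences held none. The *BC051142* sequence does hold AGATAG and, close to the position, CTATCT. Both fit WGATAR (R standing for A or G), a looser form of the motif, which the 3 CpG-rich sequences lack. These examples make the contrast look sharper than it was, since 45.9% of the CpG-poor and 4.15% of the CpG-rich WT-only promoter peaks had WGATAA within 50 bp of the position. None of these stretches met an exon of a coding gene in GENCODE vM1. The *Lmo2*, *Nr5a2*, *Krt8*, *BC051142*, *Kdr* and *T* positions were upstream of the gene and between genes, those of *Inpp4a* and *Glt6d1* were in introns of the genes themselves, and that of *Man1b1* was upstream of the gene and inside an intron in the annotation.

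WT promoter peaks were less often without a DKO partner than other WT peaks, and this depended on the CpGs around them. Over all 20410 WT peaks, 54.4% had no DKO peak within 500 bp. Among promoter peaks the share was 26.2% (95% Wilson interval 25.1% to 27.4%), and among the 15069 WT peaks farther from 5′ ends it was 64.4% (63.6% to 65.2%). Of the 242 promoter peaks with under 10 CpGs, 159 had no DKO peak, a share of 65.7% (59.5% to 71.4%). The share was 43.4% (39.0% to 47.9%) for the 470 promoter peaks with 10 to 19 CpGs and 22.4% (21.2% to 23.6%) for the 4629 with 20 or more. Of the peaks elsewhere with under 10 CpGs, 67.8% had no DKO peak. These shares are the measure by which the peaks were chosen and were not tested. All intervals given here are at 95% and cover counting error within 1 library only.

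**Figure D1:**
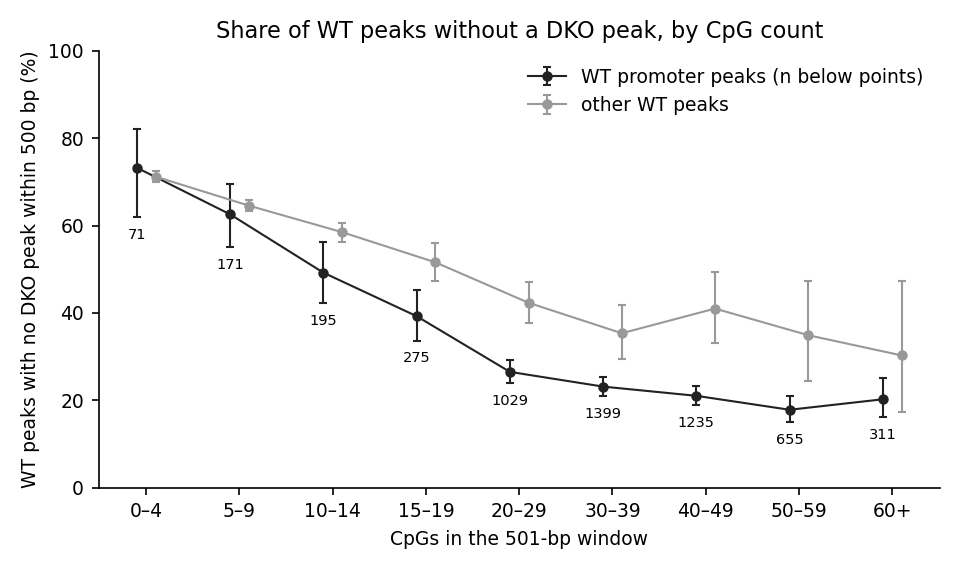
The share of WT peaks with no DKO peak within 500 bp (vertical axis, %) is plotted against the CpG count of the 501-bp window (horizontal axis) for WT promoter peaks (black, with their number under each point) and all other WT peaks (grey), and bars are 95% Wilson intervals. Promoter peaks go from 73.2% at 0 to 4 CpGs to 17.9% at 50 to 59 CpGs, and both lines start near each other and part as CpGs increase.

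The WT-only promoter peaks were mainly CpG-rich, though less often than WT promoter peaks as a whole. Of all 5341 WT promoter peaks 4629 held 20 or more CpGs, and of the 3941 shared ones 3592 did. The 1037 peaks with 20 or more CpGs were 74.1% of the 1400 (71.7% to 76.3%), the 204 with 10 to 19 were 14.6%, and the 159 with under 10 were 11.4% (9.80% to 13.1%). The DKO list also held more promoter peaks, 10799 against 5341. To see how often a start site had a DKO peak at all, 22202 coding genes of GENCODE vM1 were taken with 1 start site each. Of the 7788 start sites with 20 or more CpGs and no WT peak within 1 kb, 45.9% had a DKO peak within 1 kb, and of the 4420 with a WT peak 80.7% did. Of the 6842 start sites with under 10 CpGs and no WT peak, 1.30% had a DKO peak, and of the 144 with a WT peak 40.3% did. A DKO peak was common at CpG-rich start sites with or without a WT peak, and rare at CpG-poor ones without a WT peak.

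WGATAA separated the CpG classes. It was present in 114 of the 159 CpG-poor WT-only promoter windows, a share of 71.7% (64.3% to 78.1%), in 49.5% (42.7% to 56.3%) of those with 10 to 19 CpGs, and in 199 of the 1037 CpG-rich windows, a share of 19.2% (16.9% to 21.7%). The CpG-poor share was 52.5 percentage points above the CpG-rich share (Newcombe interval 44.7 to 59.3). CpG-rich windows have fewer A and T bases, with a median GC content of 62.9% against 49.7%, so any motif of this kind is rarer in them. The control motif WAGTAA, which has the same letters in another order, was present in 27.7% of CpG-poor and 13.3% of CpG-rich WT-only promoter windows, a difference of 14.4 points (7.63 to 22.0). Over all 22202 start sites, WGATAA was present in 23.1% of windows of the same length.

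Against start sites of the same CpG class with no peak in either list within 1 kb, WT-only promoter peaks held WGATAA more often in every class. The excess was 27.8 points (20.2 to 34.3) with under 10 CpGs, where 43.9% of 6753 start sites held it, and 22.1 points (15.1 to 29.2) with 10 to 19 CpGs. With 20 or more CpGs it was 9.25 points (6.78 to 11.9), since 9.94% of 4216 start sites without a peak held it. The start-site windows were centred on the start, whereas the peak windows were centred up to 1000 bp from a 5′ end. The sets were thus matched in CpG class and not in position. In windows 2 kb to either side of the peaks, WGATAA was present in 45.3% for the CpG-poor and 39.0% for the CpG-rich WT-only promoter peaks. The CpG-poor windows were above their surroundings and the CpG-rich windows below them, and the CpGs of the surroundings were not counted.

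**Figure D2:**
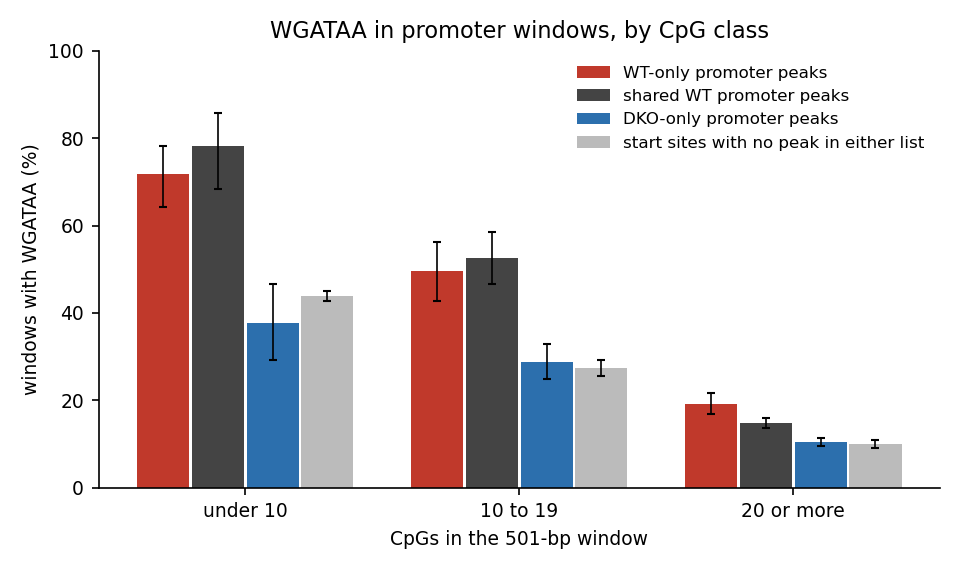
Bars give the share of 501-bp windows with WGATAA on either strand (vertical axis, %) by CpG class (horizontal axis), for WT-only, shared WT and DKO-only promoter peaks and for coding start sites with no peak within 1 kb in either list, with 95% Wilson intervals. WT-only windows stand at 71.7%, 49.5% and 19.2% from few to many CpGs, close to shared windows in the 2 lower classes and above DKO-only windows in all 3.

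Compared with shared WT promoter peaks, WT-only promoter peaks held WGATAA more often where CpGs were many, and the difference was not resolved where they were fewer. With under 10 CpGs the shares were 71.7% for WT-only and 78.3% for the 83 shared peaks, a difference of -6.61 points (-17.2 to 5.28), which these numbers of peaks cannot tell from 0. With 10 to 19 CpGs the difference was -3.12 points (-12.1 to 5.95). With 20 or more CpGs WT-only windows held the motif more often than the 14.8% of 3592 shared windows, by 4.43 points (1.86 to 7.18), while WAGTAA differed by -1.002 points (-3.27 to 1.46). Within 50 bp of the position the CpG-rich shares were close, with WGATAA in 4.15% of WT-only and 4.04% of shared windows. The 5881 DKO-only promoter peaks, which had no WT peak within 500 bp, held WGATAA in 37.6% of windows with under 10 CpGs, 28.7% with 10 to 19 and 10.5% with 20 or more. WT-only windows were above these by 34.1 points (22.4 to 44.5), 20.8 points (12.8 to 28.6) and 8.71 points (6.27 to 11.3). Away from promoters, 79.1% of the 7991 WT-only peaks with under 10 CpGs held the motif, from which the promoter share differed by -7.42 points (-14.9 to -0.927).

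The position of the motif within the window also separated the classes. In CpG-poor WT-only promoter windows, 89 of 180 WGATAA matches were centred within 50 bp of the peak position, which is 49.4% (42.2% to 56.7%), where even placement would give 20.2%. In the windows 2 kb away the central share was 24.6% (19.2% to 31.0%), and for WAGTAA in the CpG-poor windows it was 3 of 52 matches, or 5.77% (1.98% to 15.6%). In CpG-rich WT-only promoter windows, 46 of 227 WGATAA matches were central, which is 20.3% (15.6% to 26.0%) and includes the value for even placement. For WAGTAA in the CpG-rich windows the central share was 15.8% (10.85% to 22.4%). The class with 10 to 19 CpGs lay between them for WGATAA, with 32.6% (25.4% to 40.7%). There WAGTAA had 28.6% (18.4% to 41.5%), so the motif and its control were not told apart in this class. Shared promoter peaks had central shares of 59.2% (49.6% to 68.2%) with under 10 CpGs and 24.4% (21.2% to 28.0%) with 20 or more. Their WAGTAA shares were 30.8% (16.5% to 49.99%) and 17.4% (14.5% to 20.7%), so the low CpG-poor control was not general. A central WGATAA was present in 73 of the 159 CpG-poor WT-only promoter windows (45.9%) and in 43 of the 1037 CpG-rich ones (4.15%). For shared promoter windows these shares were 57.8% and 4.04%.

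**Figure D3:**
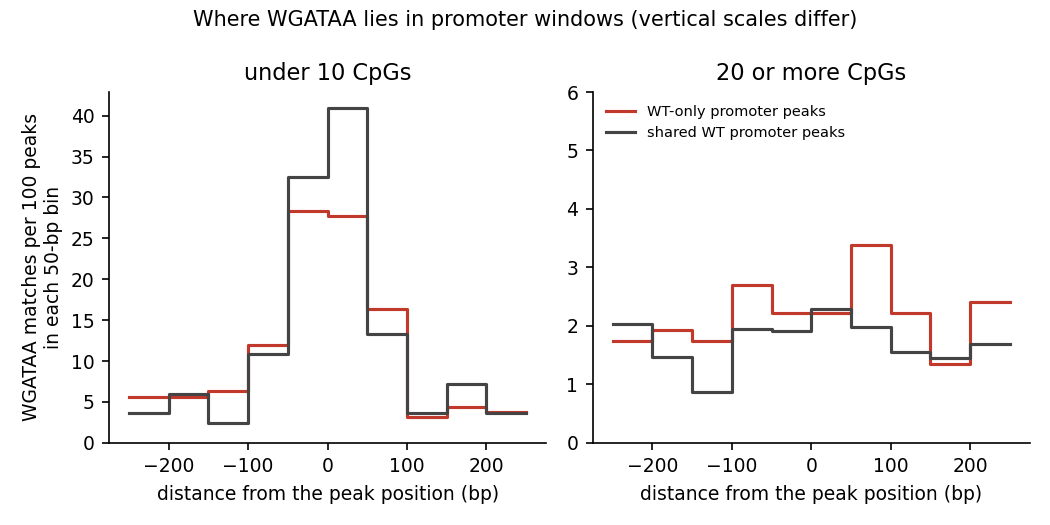
The number of WGATAA matches per 100 peaks in each 50-bp bin (vertical axis, on a different scale in each panel) is plotted against the distance from the peak position in bp (horizontal axis) for WT-only (red) and shared (dark grey) WT promoter peaks with under 10 CpGs (left) and 20 or more (right). In the CpG-poor panel the WT-only line stands at 28.3 and 27.7 matches per 100 peaks in the bins beside the position, and in the CpG-rich panel it stays between 1.35 and 3.38 with no central rise.

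Windows with several motifs were also more frequent among CpG-poor than among CpG-rich WT-only promoter peaks. Of the 159 CpG-poor WT-only promoter windows, 43 (27.0%) held 2 or more WGATAA and 17 held 3 or more. Of the 1037 CpG-rich windows 25 (2.41%) and 3 did. Among CpG-poor windows, 2 or more were present in 38.55% of shared WT and 5.98% of DKO-only promoter peaks. Away from promoters, 42.5% of the CpG-poor WT-only peaks held 2 or more. The CpG-poor WT-only promoter windows with most motifs were at *Rfesd* with 5, and at *Ift57* and *Fhl4* with 4 each. The *Rfesd* peak lay 945 bp inside the gene on chromosome 13 at 76155065 with a height of 8.50. *Ift57* encodes a protein of cilium transport, and its peak lay 777 bp upstream on chromosome 16 at 49698630 with a height of 6.02. Among CpG-rich windows the most was 3, at *Hprt1*, *Casc3* and *Rnf187*. At *Hprt1*, which encodes a purine salvage enzyme, 1 of the 3 lay within 50 bp of the position, and at *Casc3* and *Rnf187* none did.

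Heights, which are the authors' values from their profile of the WT Flk1(+) library, were used by the selection and are given as a description. The median height was 6.33 for the CpG-poor, 6.50 for the middle and 6.92 for the CpG-rich WT-only promoter peaks, with quartiles of 5.501 and 8.59, 5.62 and 7.91, and 5.76 and 9.41. The lowest height in the lists is 5.00, so most of these peaks were near the calling limit. Shared promoter peaks had medians of 8.70, 7.399 and 9.26 in the same order. Of the WT-only promoter peaks 476 (34.0%) had a height of 8 or more, and of the shared ones 2470 (62.7%).

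The height in the WT ES library at the same positions, also the authors' value, was lower at CpG-poor peaks. Its median was 1.52 with under 10 CpGs, 1.65 with 10 to 19 and 1.83 with 20 or more, and it was under 1 at 36 (22.6%), 22 (10.8%) and 70 (6.75%) of these peaks. The authors' enrichment, the ratio of the Flk1(+) to the ES height with ES heights under 1 taken as 1, had medians of 4.49, 3.88 and 3.70. It was 5 or more at 66 CpG-poor peaks (41.5%) and at 170 CpG-rich peaks (16.4%), and under 4 at 66 (41.5%) and 652 (62.9%). The 6 tallest CpG-rich peaks stood on ES heights of 7.77 to 31.9, and the 6 tallest CpG-poor peaks on 0.482 to 5.99. The lower ES height at CpG-poor peaks was not particular to WT-only ones. Shared WT promoter peaks had ES medians of 1.84 with under 10 and 2.39 with 20 or more CpGs. DKO-only promoter peaks had medians of 1.37 and 1.83 in the DKO ES library. The DKO ES height at the WT-only positions is not in the lists, so whether a site missed the DKO list through its Flk1(+) or its ES signal was not tested.

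**Figure D4:**
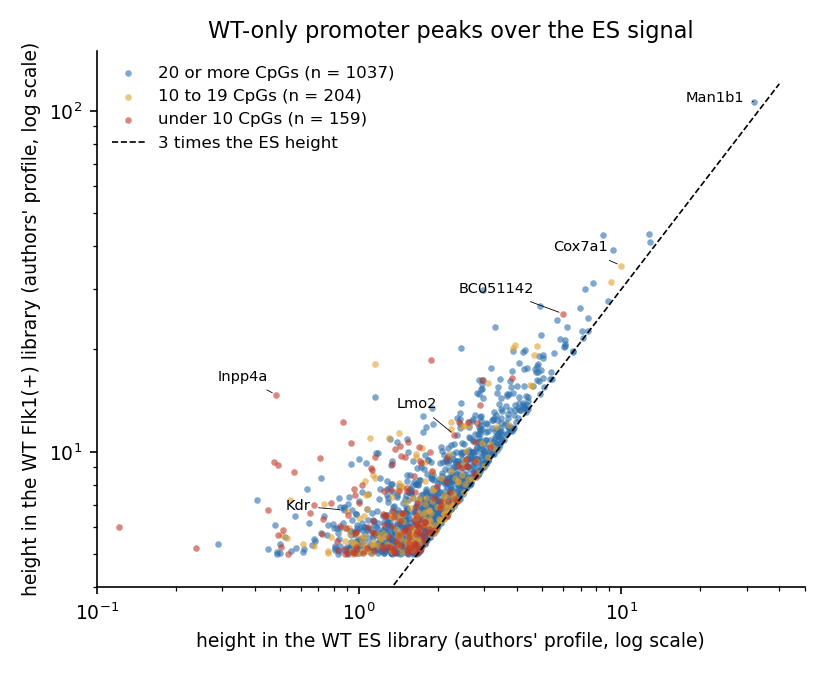
Each point is 1 of the 1400 WT-only promoter peaks, with its height in the WT ES library (horizontal axis) against its height in the WT Flk1(+) library (vertical axis), both the authors' profile values on log scales, coloured by CpG class, with a dashed line at 3 times the ES height. The tallest peak, at *Man1b1*, has 106.4 over 31.9, whereas the peak at *Inpp4a* has 14.7 over 0.482.

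Within each height class WGATAA still differed between CpG-poor and CpG-rich WT-only promoter peaks. With heights of 5 to 6 it was present in 66.2% of 65 CpG-poor and 16.0% of 331 CpG-rich windows, and with heights of 8 and over in 84.1% of 44 and 23.3% of 382. Shared CpG-rich windows held it in 11.9% of 413 with heights of 5 to 6 and in 16.8% of 2301 with heights of 8 and over. The Wilson intervals of WT-only and shared CpG-rich windows overlapped for heights of 5 to 6 (12.45% to 20.35% and 9.09% to 15.3%) and did not for heights of 6 to 8 (13.8% to 22.1% and 8.83% to 12.9%) or of 8 and over (19.3% to 27.8% and 15.35% to 18.4%).

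The tallest CpG-poor WT-only promoter peak had no WGATAA, though it had the looser WGATAR close to its position. It lay on chromosome 17 at 34535152, 613 bp upstream of *BC051142*, with a height of 25.4 over an ES height of 5.99 and 6 CpGs. A peak on chromosome 9 at 46721533 near *2900052N01Rik*, with a height of 18.6 over 1.88, had none either, and 2 more WT-only peaks lay beside it with heights of 12.2 and 7.83, so these 3 share a site. The other 4 of the 6 tallest held the motif close to their position. At *D030018L15Rik*, 973 bp inside the gene, 1 match was centred 0.5 bp from the position of a peak with a height of 16.4. At *Glt6d1*, 985 bp inside the gene, a peak with a height of 16.3 had 2 central matches. The peak at *Inpp4a*, which encodes a phosphatase of membrane inositol lipids, lay on chromosome 1 at 37426516 in an intron 450 bp from the 5′ end, with 4 CpGs, 3 WGATAA and an enrichment of 14.7. At *Defb44*, a gene of the defensin family of antimicrobial peptides, a peak with a height of 13.7 had 3 matches, 2 of them central. Of these 6, only *Inpp4a* had a DKO peak within 1 kb of a 5′ end of the gene, while the nearest DKO peak to the WT-only position was 49925 bp away. Of all CpG-poor WT-only promoter peaks, 25.2% had a gene with such a DKO peak. The nearest DKO peaks to these 6 positions were between 5377 bp (*2900052N01Rik*) and 188666 bp (*BC051142*) away.

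In the middle CpG class the 3 tallest were at *Cox7a1*, *Ccdc117* and *Agtrap*. The peak 118 bp upstream of *Cox7a1*, which encodes the heart and muscle form of a subunit of cytochrome c oxidase, lay on chromosome 7 at 30969072 with a height of 35.2 over an ES height of 9.97, 12 CpGs and 4 WGATAA, the nearest centred 56.5 bp away. At *Ccdc117* the height was 31.4 over 9.14 with 1 central match, and at *Agtrap*, whose product binds the angiotensin receptor, it was 20.5 over 3.93 with 1 match 119.5 bp away. None of these 3 genes had a DKO peak within 1 kb of its start, beside 34.3% of all WT-only promoter peaks of the middle class with such a gene.

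The tallest CpG-rich peaks lay close to 5′ ends and mostly lacked the motif. *Man1b1*, which encodes a mannosidase of protein quality control, had a peak 91 bp upstream on chromosome 2 at 25188185 with 52 CpGs and no WGATAA, and the nearest DKO peak was 13473 bp away. *Arv1* followed with 43.4 over an ES height of 12.8 and 1 central match. *Cdk5r2*, an activator of the neuronal kinase Cdk5, had 43.2 over 8.50, and *Abce1*, a factor of ribosome recycling, 41.3 over 12.9, both without the motif. *Vkorc1*, the vitamin K reductase that warfarin blocks, had 39.0 over 9.31 with 1 match 58.5 bp away, and *Usp36*, a nucleolar ubiquitin protease, 31.3 over 7.77 with none. None of these 6 genes had a DKO peak within 1 kb of its start, beside 19.6% of all CpG-rich WT-only promoter peaks with such a gene. The enrichments of the 6 peaks were between 3.21 (*Abce1*) and 5.08 (*Cdk5r2*).

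The WT-only promoter peaks lay beside 1357 genes within 1 kb, and 1313 of these symbols were found in GENCODE vM1. CpG-poor peaks lay farther from the 5′ end, at a median of 483 bp, than CpG-rich peaks, at 145 bp. The same held for shared WT promoter peaks, with medians of 443 and 115 bp, and for DKO-only ones, with 566 and 171 bp. Within 100 bp lay 13.2% of the CpG-poor and 37.4% of the CpG-rich WT-only promoter peaks. Where the start site could be placed to within 50 bp of a GENCODE start of the same gene, 87 of 135 CpG-poor peaks were upstream, or 64.4% (56.1% to 72.0%), and 513 of 918 CpG-rich peaks, or 55.9% (52.7% to 59.1%). Shared CpG-rich peaks were upstream in 64.1% (62.4% to 65.7%) and within 100 bp in 43.8%. A CpG-poor window did not always mean a CpG-poor gene start, since 53 of the 135 placed start sites beside CpG-poor peaks (39.3%) held 20 or more CpGs in their own 501 bases. Of the CpG-rich WT-only promoter peaks 82 (7.91%) had more than 1 gene within 1 kb, against 594 (16.5%) of the shared ones.

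Among the other motifs searched on both strands, the box CCAAT and the Ets-type motif CCGGAA were less frequent in CpG-rich WT-only than in CpG-rich shared promoter windows. CCAAT was present in 42.6% and 55.3%, a difference of -12.6 points (-16.0 to -9.20), and CCGGAA in 32.0% and 41.9%, a difference of -9.91 points (-13.1 to -6.60). Peaks within 250 bp of a 5′ end gave -10.55 points (-14.6 to -6.42) and -9.66 points (-13.6 to -5.61). Both motifs were more frequent in the WT-only windows than at CpG-rich start sites without a peak, by 6.52 points (3.21 to 9.88) and 5.92 points (2.84 to 9.11). Position relative to the start was not matched here either. Compared with shared windows, CCAAT was also less frequent in the middle class, with a difference of -13.65 points (-22.4 to -4.61). There the nuclear receptor motif TGACCT was more frequent than in shared windows by 8.10 points (0.164 to 16.1). GGGCGG, the Sp1-type box, was present in 81.5% of WT-only and 82.8% of shared CpG-rich windows, -1.34 points apart (-4.09 to 1.24). The other motifs were TGACCT (that of nuclear receptors), TGTTCT (bound by the glucocorticoid receptor), TGANTCA (the AP-1 type), TATAAA (the TATA box) and CANNTG (the E box), and in CpG-rich windows they differed between WT-only and shared by at most 2.16 points, with 0 in each interval. In CpG-poor windows, with 83 shared peaks to compare, the interval included 0 for every motif searched. Over all 12208 start sites with 20 or more CpGs, CCAAT was present in 43.2% and CCGGAA in 37.0% of windows, the second above its share in CpG-rich WT-only windows, and over the 22202 start sites of all classes in 47.7% and 24.4%.

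The lack of a DKO peak within 500 bp did not mean a lack of DKO peaks at the gene. Of the 1400 peaks, 313 (22.4%, 20.3% to 24.6%) had a gene within 1 kb that also had a DKO peak within 1 kb of a 5′ end of that gene, of which some genes have several. Of all 22202 coding genes 33.7% had such a DKO peak, and the selection itself left out WT peaks with a DKO peak within 500 bp. That share pools CpG classes that differ widely. Start sites without a WT peak had a DKO peak in 1.30% with under 10 CpGs and 45.9% with 20 or more. Start sites with a WT peak had one in 40.3% and 80.7%. The 313 peaks whose gene had a DKO peak were 40 of the CpG-poor (25.2%), 70 of the middle (34.3%) and 203 of the CpG-rich peaks (19.6%). A DKO peak lay 501 to 1000 bp away from 32 CpG-poor (20.1%), 51 middle (25%) and 164 CpG-rich (15.8%) peaks. No DKO peak lay within 5 kb of 105 (66.0%), 126 (61.8%) and 738 (71.2%) of them, and none within 50 kb of 44 (27.7%), 56 (27.5%) and 284 (27.4%). Another WT peak lay within 500 bp of 188 of the 1400 peaks, so not all of them are separate sites, and 116 (8.29%) had a gene that also had a shared WT peak within 1 kb of its start.

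**Figure D5:**
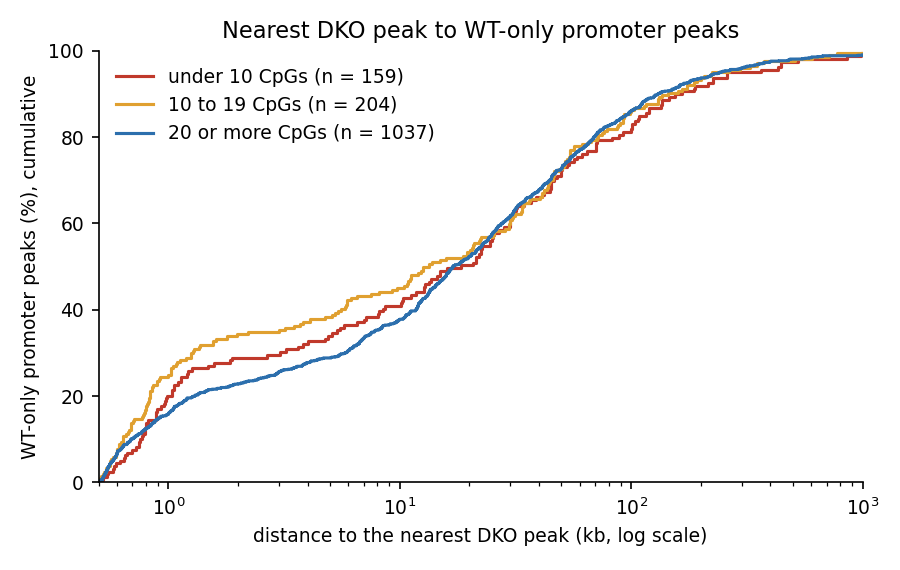
The cumulative share of WT-only promoter peaks (vertical axis, %) is plotted against the distance to the nearest DKO peak in kb on a log scale (horizontal axis), by CpG class. The lines start at 0.5 kb, the limit of the selection, and have medians of 18323, 12989.5 and 16994 bp from few to many CpGs.

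The members nearest to a DKO peak were at *Fam195b*, 501 bp from it, with a height of 7.87, and at *2810408A11Rik*, 502 bp from it, with 9.46. The peaks at *Cyr61*, 500 bp from a DKO peak, and *Use1*, 499 bp, were left out with heights of 5.26 and 9.80. At the promoter limit, peaks 1000 bp from *Tspan5* and *Pcp4l1* were members with heights of 14.4 and 9.07, and the peak 1001 bp from *Snx24*, with 5.41, and that 1005 bp from *Fcgr4*, with 5.83, were not. WGATAA was present in 15 of 22 peaks with 9 CpGs and 19 of 24 with 10 CpGs, and in 12 of 28 with 19 CpGs and 8 of 13 with 20 CpGs.

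Genes of 16 lists were looked up among the 1357. These lists, of GATA factors, heart, blood, endoderm and other groups, were drawn up with results of these data known, so the counts are descriptions. Of 22202 coding genes, 5.81% had a WT-only promoter peak, 15.9% a shared WT promoter peak and 33.7% a DKO peak within 1 kb. The counts for most lists were 1 to 3 genes.

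Among 11 GATA factors and cofactors, *Lmo2*, *Gata4* and *Ldb1* had a WT-only promoter peak. *Lmo2* encodes a bridging protein of GATA complexes in blood and vessel precursors, and its peak lay 81 bp upstream on chromosome 2 at 103798071 with a height of 11.2 over an ES height of 2.31, 8 CpGs and 2 central WGATAA. The nearest DKO peak to it was 61546 bp away. The peak 888 bp upstream of *Gata4* itself, in the middle CpG class, had a height of 8.07 over 1.41 and 1 WGATAA 65.5 bp from the position. *Ldb1*, which encodes the partner of *Lmo2*, had a CpG-rich peak in its UTR with a height of 5.73 over 1.89, no WGATAA and a DKO peak 5465 bp away at another start of the gene.

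Of 22 heart transcription regulators, 6 had a WT-only promoter peak (*Myocd*, *Mesp2*, *Hand2*, *Tbx18*, *Hand1* and *Tbx2*), which is 27.3% beside 5.81% of all coding genes. Other promoter peaks were frequent at this list too. Of the 22 genes, 5 (22.7%) had a shared WT promoter peak, beside 15.9% of all coding genes. A DKO peak within 1 kb was present for 10 (45.45%), beside 33.7%. *Myocd*, the coactivator of smooth and heart muscle genes, had the tallest, 38 bp upstream on chromosome 11 at 65083529 with a height of 19.7 over 3.87, 31 CpGs and no WGATAA. The bases within 50 bp of the *Myocd* position do hold CTATCT, which fits WGATAR. *Mesp2*, a factor of early mesoderm, had 7.20 over 1.97 with 1 WGATAA centred 9.5 bp from the position. *Tbx18*, of the epicardium and sinus horn, had 5.74 over 1.052 with 1 match 98.5 bp away. *Hand2* had 6.11 over 1.97 and no match, *Hand1* 5.42 over 1.78 with 8 CpGs and no match, and *Tbx2* 5.10 over 1.36 with none. The *Hand1* peak was 595 bp, the *Hand2* peak 1256 bp and the *Tbx2* peak 1691 bp from a DKO peak. Over the 6 peaks 5 heights were under 8 and 1 peak had a central WGATAA. *Tnnt2*, cardiac troponin T, was the only gene of 29 heart and smooth muscle effectors with such a peak, in an intron 332 bp from the 5′ end with 9 CpGs, a height of 6.25 over 1.43 and no WGATAA.

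Blood and vessel genes had a WT-only promoter peak in 6.45% and 8.33%, near the share of all coding genes. *Ank1*, which anchors the red cell membrane skeleton, had a CpG-rich peak with a height of 10.7 over 1.40 and 1 WGATAA 54.5 bp from the position, and *Epor*, the erythropoietin receptor, had 7.93 over 2.24 and none, out of 31 genes. Of 24 vessel and Flk1 lineage genes, *Kdr* and *Flt1*, both receptors of vascular endothelial growth factor, had CpG-rich peaks without WGATAA. The *Kdr* peak lay 222 bp upstream on chromosome 5 at 76374675 with 6.75 over 0.873, and a DKO peak with a height of 28.2 lay 16282 bp from it. The *Flt1* peak lay 94 bp upstream with 6.14 over 0.796.

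Of 22 endoderm transcription factors *Nr5a2* and *Foxa1* had a WT-only promoter peak. *Nr5a2*, a nuclear receptor of early endoderm and liver, had a peak 154 bp upstream on chromosome 1 at 138857179 with 2 CpGs, 3 WGATAA of which 2 were central, and a height of 6.33 over 1.71. *Foxa1* had 5.66 over 1.45 with 22 CpGs and 1 match 72.5 bp away. Of 30 placed visceral endoderm and liver effectors 1 (3.33%) had such a peak, beside 5.81% of all coding genes. This was *Apoe*, a lipid carrier, with a peak in its UTR of 6.99 over 2.07 and no match. Of 22 epithelial junction and keratin genes 2 (9.09%) had a WT-only promoter peak. These were the keratin genes *Krt8* and *Krt19*, which endoderm and other epithelia express. Each had a peak with 9 CpGs, 1 WGATAA and a low height, 6.03 over 1.70 and 5.30 over 1.62. A DKO peak lay 933 bp and 790 bp from these peaks.

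Among genes of mesoderm and the Bmp pathway, 3 of 25 had a WT-only and 10 of 25 a shared WT promoter peak. The WT-only peaks at *Msx1*, *T* and *Bmp7* had heights of 6.53, 6.20 and 5.61, 39 CpGs or more and no WGATAA. Of 79 cytosolic ribosomal protein genes only *Rpl23*, with a pair of peaks, and *Rps19* had a WT-only promoter peak, whereas 36 had a shared WT peak and 78 a DKO peak within 1 kb. The *Rps19* peak lay 527 bp from a DKO peak. Of 17 genes of DNA methylation and demethylation 1, *Gadd45a*, had a WT-only promoter peak, with 15.6 over 4.595 and a DKO peak 633 bp away, and 12 had a DKO peak. *Sall4*, of the 22 pluripotency genes, had a CpG-rich peak 10 bp inside the gene with 15.5 over 3.78 and 2 central WGATAA. *Tex14*, the only germline gene of 27, shares a promoter with *Rad51c*, where 2 peaks had heights of 16.1 and 9.27 and no motif. *Zbtb16*, of 20 glucocorticoid receptor target genes, had 6.10 over 1.14 and no match.

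The genes that the study listed as responding more to Gata4 in DKO cells were chosen by the authors from expression in these lines. Of group 1, *Elovl7*, *Dock5* and *Lrpap1* of 53 placed genes (5.66%) had a WT-only promoter peak, with heights of 7.04, 5.69 and 5.07. Of group 2, *Myocd*, *Tnnt2*, *Tbx18* and *Fras1* of 39 (10.3%) did. Of these 7 peaks only that of *Tbx18* held WGATAA, and none of the 7 was CpG-poor except that of *Tnnt2*. The *Myocd* peak held the looser WGATAR, as given above.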

How the data were processed

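Gata4 ChIP-seq of 4 libraries, 1 per condition, was read from the 2 lists of peaks that the authors called in the Flk1(+) libraries. The submitters' processing notes name CASAVA 1.8.1 and cutadapt, and the paper's methods give mapping to mm9 and calling with the DNAnexus tools, with the matching ES library as background. The aligner is not given in the sources used here. The deposited signal, called height, comes from the authors' read profile of the Flk1(+) or the ES library, and scaling for depth is not stated. The authors' ratio of these heights is called enrichment. The deposited −log10 of the q-value was read but not printed, and the deposited rank served as the score. No column names a library, so the peak number that the paper states for a genotype decided which list was which. The lists hold no read counts, so the depth behind a height is unknown.

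All 43143 deposited 501-bp windows matched the mm9 reference, with 0 mismatching. Distances to 5′ ends are the authors' smallest values for RefSeq genes, and WT-only means no DKO position within 500 bp. CpGs and motifs were counted in the windows on both strands, and sides and exons came from GENCODE vM1. Shares carry 95% Wilson and differences Newcombe intervals, with no p-values because there was no replicate. Peaks were named by fixed rules: the 6 tallest with under 10 and with 20 or more CpGs, the 3 tallest between, the 3 with most WGATAA at either end, up to 4 tallest per gene list and those at the limits; *Hand1*, *Tbx2* and the further peaks at *2900052N01Rik* were added after their values were seen. The members, lists and comparisons were chosen with earlier results of these data known. Steps were tested on simulated data. Python 3.11.15, pandas 2.3.3, statsmodels 0.14.6, pysam 0.24.0 and Matplotlib 3.10.9 were used.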

Additional observations from a re-analysis of the deposited data

How the results depend on the processing

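No condition had a replicate, the lists give no value for a library at a site it did not call, and the CpG-poor comparison with shared peaks rests on 83 of them. No paired analysis was possible because each group holds 1 library and no result comes from a test between libraries. Over 11 results and 11 alternative settings, 55 of 96 values stayed within the reported interval (for the number of peaks, within 1.5 times). The share of WGATAA in CpG-rich windows stayed higher in WT-only than in shared peaks, by 2.18 to 6.48 points, with an interval above 0, under the 10 settings that recomputed it. The CpG-poor difference from shared peaks lay between -15 and 0.693 points, with 0 inside the interval throughout.

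The share of WT promoter peaks that were WT-only became 35.9%, 21.6% and 19.6% when a DKO peak within 250, 1000 or 2000 bp counted as shared, and 23.01% and 29.5% with promoter limits of 500 and 2000 bp. With a DKO distance of 250 bp the CpG-poor and CpG-rich classes made up 9.07% and 76.8% of WT-only promoter peaks, and with 2000 bp the CpG-rich class made up 76.4%. With promoter limits of 500 and 2000 bp the CpG-poor class made up 7.60% and 20.5% and the CpG-rich class 83.0% and 63.0%. The share whose gene had a DKO peak within 1 kb became 43.2%, 6.245% and 1.53% with DKO distances of 250, 1000 and 2000 bp, since these set which peaks remain, 15.8% and 26.7% with the promoter limits, and 48.6% when a DKO peak within 5 kb of the gene counted.

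Keeping only WT peaks with a height of at least 8 left 476 WT-only promoter peaks, 16.2% of promoter peaks, of which 9.24% were CpG-poor and 80.3% CpG-rich, with WGATAA in 84.1% and 23.3% and a DKO peak at the gene in 19.7%. Keeping the 10205 highest-scoring WT peaks left 414, 20.3% of promoter peaks, of which 15.2% were CpG-poor and 69.8% CpG-rich, with WGATAA in 79.4% and 23.2%, a central share of 64.1% in CpG-poor windows and a DKO peak at the gene in 19.6%. With CpG classes of under 8 and 25 or more, they made up 8.64% and 65.3%, and CpG-rich windows held WGATAA in 16.85%, with a central share of 15.0%. The motif WGATAR was present in 81.1% and 31.5% of CpG-poor and CpG-rich windows, and WGATAA in the central 200 bp in 62.9% and 9.64%.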

Other observations

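The share of WT promoter peaks without a DKO peak varied between chromosomes, as did the number of DKO promoter peaks. On the X chromosome 45 of 114 WT promoter peaks were WT-only, a share of 39.5% (95% Wilson interval 31.0% to 48.7%), and the DKO list held 118 promoter peaks there. On chromosome 12 the share was 35.8% (29.3% to 42.7%) of 193, with 328 DKO promoter peaks. The lowest shares were 19.2% (15.6% to 23.4%) of 390 on chromosome 7, with 807 DKO promoter peaks, and 20.2% (15.7% to 25.7%) of 247 on chromosome 8, with 792. These chromosomes were picked after the values of all 20 were seen, and the cause was not tested.

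The WT-only promoter peak with the greatest enrichment lay in the middle CpG class, 32 bp inside *Gdf3*, which encodes a growth factor of the Tgf-beta family made by pluripotent cells and the early embryo. It lay on chromosome 6 at 122560057 with a height of 18.1 over an ES height of 1.147, an enrichment of 15.8 and 2 WGATAA, and the nearest DKO peak was 131994 bp away. It was picked after its values were seen.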
